A study of Homo sapiens with 18 samples.

Results

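The comparison concerns gene expression in vehicle-treated cells of 2 established human pancreatic cancer lines, BxPC3 and Panc327. Its members are the 6 libraries labelled as DMSO-treated from these lines, 3 of BxPC3 and 3 of Panc327, out of 18 libraries in the series. The series exposed BxPC3, Panc327 and SUIT2 cells to the vehicle DMSO or to 100 nM THZ1, a covalent inhibitor of the transcriptional kinases CDK7, CDK12 and CDK13, for 6 h, with 3 libraries in each of the 6 groups. Polyadenylated RNA was sequenced. No allele or transgene is stated for either line, and all 6 libraries compared here received DMSO and no drug. Each line stands for 1 tumour, so a difference between them is a difference between these lines. The labels do not say whether the replicates came from separate cultures, so the p-values below measure the spread between these libraries, which may be technical. The vehicle-treated SUIT2 libraries show whether a gene is counted in another pancreatic cancer line. They and the THZ1 libraries are not compared here, but they enter the same fit, and a gene counted in them alone is tested too.

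Pancreatic ductal adenocarcinoma arises from the exocrine pancreas and often loses CDKN2A and SMAD4 function. Tumours of this kind are commonly sorted into a classical subtype, which keeps the gut-endoderm factors GATA6 and HNF4A and makes mucins, trefoil factors and CEACAM proteins, and a basal-like or squamous subtype, which makes stratified keratins and the factor TP63. Interferon-stimulated genes are switched on through response elements in their promoters, and metallothioneins, small proteins that bind zinc and copper, through metal response elements bound by MTF1.

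Each library held between 7618101 and 8631273 counts on genes, and between 15547 and 16608 of the 26485 gene symbols in the files had at least 1 count. Records that fell outside genes, were ambiguous or were not unique made up 22.556% to 25.889% of all records. The first principal component of the 6 libraries took up 97.66% of the variance and separated the lines. Every pair of replicates differed by more than counting noise (chi-square per degree of freedom 1.408 to 2.525), so none was treated as a repeat of another. Levels are given as CPM, counts per 1000000 counts of the library after TMM scaling. Where 3 values are given for a line, they are those of its replicates 1, 2 and 3. Values after ± are SDs over 3 libraries unless marked SE, and a positive log2 difference is higher in BxPC3. A value in parentheses marked SE alone is a log2 difference from the same edgeR fit, with an adjusted p under 0.05. A gene with 0 counts in a line is compared with a floor of 3 counts over its 3 libraries, 0.116 CPM in BxPC3 and 0.109 CPM in Panc327. Intervals and floors cover counting error only.

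The simple keratins of duct cells marked both lines. KRT19 was at 1516, 1636 and 1559 CPM in BxPC3 and 821, 792 and 795 CPM in Panc327, KRT7 at 1546 ± 43.9 CPM in BxPC3 and 995 ± 30.9 CPM in Panc327, and KRT18 at 1139.5 ± 17.3 CPM in BxPC3 and 733 ± 2.07 CPM in Panc327; all 3 were higher in BxPC3. KRT8, which pairs with KRT18, was at 1309.7 ± 11.2 CPM in BxPC3 and 1126 ± 15.7 CPM in Panc327, and it overlaps KRT18 on the other strand over 525 exon bases. The adhesion protein EPCAM was lower in BxPC3, at 149.8, 144 and 143 CPM in BxPC3 and 453, 461 and 474 CPM in Panc327 (log2 difference -1.67 ± 0.04 SE, edgeR adjusted p = 1.93e-55). CFTR, the chloride channel of normal ducts, was at 0 counts in BxPC3 and 0.431 ± 0.465 CPM in Panc327. Of 13 acinar markers only the near-identical trypsinogens PRSS1 and PRSS2 passed the filter on low counts, at 1.71 ± 0.307 CPM in BxPC3 and 0 counts in Panc327 and 1.94 ± 0.607 CPM in BxPC3 and 0 counts in Panc327. No islet marker passed it. The leukocyte marker PTPRC and the fibroblast marker DCN had 0 counts in both lines. Of 10 leukocyte markers 3 were tested, 1 was higher in BxPC3 and 2 were lower, 33.3% and 66.7% against 38.6% and 40.7% of all genes. The higher was LCP1, an actin-bundling protein of leukocytes and many carcinoma lines, at 719 ± 18.1 CPM in BxPC3 and 148 ± 9.91 CPM in Panc327. The lower were the macrophage receptor CSF1R, at 0.0377 ± 0.0653 CPM in BxPC3 and 3.82 ± 0.478 CPM in Panc327, and CD14, at 2.20 ± 0.997 CPM in BxPC3 and 3.27 ± 0.281 CPM in Panc327, where the libraries of the lines overlapped (edgeR adjusted p = 0.0475).

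The promoters shown here belong to 2 groups of genes described below, the interferon-stimulated genes, most of them higher in BxPC3, and the metallothioneins, lower in BxPC3. The letters are the 250 bases before the gene's start in RefSeq on GRCh38.p14, read 5′ to 3′ on the strand of the gene, and capitals mark matches on either strand to GAAA, any 2 bases and then GAAAC, letters of the interferon-stimulated response element. For IFIT3 and IFI44 the RefSeq table holds 2 starts, and the one listed first was used. These 4 genes were chosen after their values were seen, IFIT3 and IFI44 as higher and EPSTI1 and IFIT5 as lower in BxPC3.
IFIT3 (chr10:89327747-89327996, plus strand): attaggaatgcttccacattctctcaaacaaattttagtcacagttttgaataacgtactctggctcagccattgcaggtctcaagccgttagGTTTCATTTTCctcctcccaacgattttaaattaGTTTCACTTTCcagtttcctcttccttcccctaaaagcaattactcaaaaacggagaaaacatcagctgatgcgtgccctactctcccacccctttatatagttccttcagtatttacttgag
IFI44 (chr1:78649539-78649788, plus strand): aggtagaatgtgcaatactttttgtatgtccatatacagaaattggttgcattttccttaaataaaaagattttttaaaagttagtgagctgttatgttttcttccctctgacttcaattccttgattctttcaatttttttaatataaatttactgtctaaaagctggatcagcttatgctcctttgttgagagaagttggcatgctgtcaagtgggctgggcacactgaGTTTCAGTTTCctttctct
EPSTI1 (chr13:42992242-42992491, minus strand): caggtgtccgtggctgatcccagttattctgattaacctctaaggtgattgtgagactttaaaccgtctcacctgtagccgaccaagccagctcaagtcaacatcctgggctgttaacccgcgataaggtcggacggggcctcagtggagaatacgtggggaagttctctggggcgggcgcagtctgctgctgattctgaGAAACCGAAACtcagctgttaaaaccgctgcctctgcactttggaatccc
IFIT5 (chr10:89414318-89414567, plus strand): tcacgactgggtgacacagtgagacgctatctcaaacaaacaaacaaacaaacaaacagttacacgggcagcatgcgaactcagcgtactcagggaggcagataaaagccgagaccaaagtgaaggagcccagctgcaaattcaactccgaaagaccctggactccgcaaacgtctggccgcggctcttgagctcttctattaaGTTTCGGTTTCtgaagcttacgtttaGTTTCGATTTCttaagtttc
In the metallothionein promoters, capitals mark matches on either strand to TGCACNC or TGCGCNC, letters of the metal response element. MT1H and MT2A were also chosen after their values were seen, the first as far lower in BxPC3 and the second as the most widely expressed of the family.
MT1H (chr16:56669564-56669813, plus strand): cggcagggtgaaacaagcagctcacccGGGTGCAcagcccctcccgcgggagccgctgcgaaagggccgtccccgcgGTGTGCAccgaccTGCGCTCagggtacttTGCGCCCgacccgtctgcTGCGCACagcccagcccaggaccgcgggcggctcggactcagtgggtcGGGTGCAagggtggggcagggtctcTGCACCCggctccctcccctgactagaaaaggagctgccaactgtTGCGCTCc
MT2A (chr16:56608334-56608583, plus strand): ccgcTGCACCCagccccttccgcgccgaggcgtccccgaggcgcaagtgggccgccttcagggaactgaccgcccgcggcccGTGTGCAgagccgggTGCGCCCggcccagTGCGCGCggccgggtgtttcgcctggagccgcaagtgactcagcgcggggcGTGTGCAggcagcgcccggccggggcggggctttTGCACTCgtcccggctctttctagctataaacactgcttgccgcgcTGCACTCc

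The lines differed at most genes. Of 14011 genes that passed the filter on low counts, 11107 (79.3%) passed edgeR's quasi-likelihood test at an adjusted p under 0.05, 5402 of them (38.6%) higher and 5705 (40.7%) lower in BxPC3. At least 2-fold differences were called for 2073 genes higher in BxPC3 (14.8%) and 2674 lower (19.1%). In 11176 genes (79.8%) the 3 libraries of 1 line all lay on 1 side of the other 3. The median log2 difference was -0.02 and the median of its absolute size 0.64. With replicates this close (common dispersion 0.0012), small differences passed the test, so sizes are given beside every call. Differences of at least 8-fold (absolute log2 of at least 3) were called for 630 genes higher and 1114 lower in BxPC3.

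A mean of at least 1 CPM was reached by 12315 genes in BxPC3 and 12898 in Panc327, of which 11540 were shared, 775 reached it only in BxPC3 and 1358 only in Panc327. Genes with at least 10 CPM in 1 line and at most 3 counts over all libraries of the other were taken as nearly absent from it. There were 170 such genes nearly absent from BxPC3, 77 of them without a count, and 61 nearly absent from Panc327, 19 of them without a count. In SUIT2, 36 of the 170 and 15 of the 61 reached 10 CPM, while 104 and 38 stayed under 1 CPM.

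**Figure D1:**
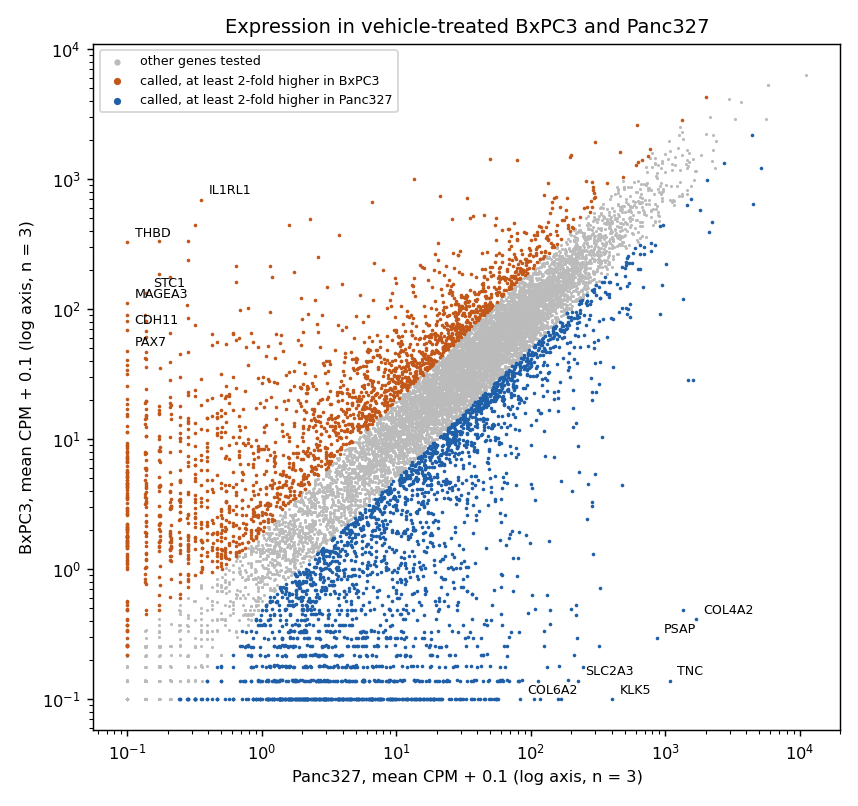
Mean level of each of the 14011 genes tested in Panc327 (horizontal) and BxPC3 (vertical), in CPM + 0.1 on log axes, with 3 DMSO libraries per line. Called genes with at least a 2-fold difference are coloured. Those named lie at the low end of the axis of the line that nearly lacks them, such as THBD on the left and KLK5 at the bottom.

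Among the 12 genes with the largest difference in favour of BxPC3 were surface and secreted proteins. THBD, the thrombin receptor thrombomodulin (chr20:23045633-23049741, minus strand, a single-exon protein-coding gene), was at 327, 326 and 329 CPM in BxPC3 and 0 counts in Panc327, at least 3001-fold higher. IL1RL1, the receptor for interleukin 33 (chr2:102311502-102352037, plus strand), was at 730.5, 654 and 693 CPM in BxPC3 and 0.333, 0.214 and 0.218 CPM in Panc327 (log2 difference 11.32 ± 0.12 SE, edgeR adjusted p = 5.07e-79). DHRS9, a retinol dehydrogenase (chr2:169064789-169096167, plus strand), was at 353, 314 and 336 CPM in BxPC3 and 0, 0 and 0.218 CPM in Panc327, a ratio of 4595 (95% counting interval 1272 to 37949). All 3 genes were abundant in every BxPC3 library and at or near 0 in every Panc327 library.

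The calcium-regulating hormone STC1 was at 126, 132 and 142 CPM in BxPC3 and 0, 0 and 0.109 CPM in Panc327, a ratio of 3675 (95% counting interval 659 to 145204). CDH11, a cadherin of mesenchymal cells (chr16:64943753-65126112, minus strand), was at 67.4, 68.3 and 72.3 CPM in BxPC3 and 0 counts in Panc327, at least 636-fold higher. TLR4, the receptor for bacterial lipopolysaccharide (chr9:117704175-117724730, plus strand), was at 44.5, 39.1 and 37.01 CPM in BxPC3 and 0 counts in Panc327, at least 368-fold higher, and SUIT2 also had it, at 37.7 ± 2.95 CPM. The basement membrane linker NID2 (chr14:52004803-52069228, minus strand) was at 179.9, 185 and 191 CPM in BxPC3 and 0, 0 and 0.218 CPM in Panc327, a ratio of 2549 (95% counting interval 705 to 21057). Its last exons overlap C14orf166 on the other strand over 1915 bases, and the kit does not mark strand, so reads there cannot be assigned to one of the pair.

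Germline and developmental genes made up the rest. PAX7, a paired-box factor of muscle stem cells (chr1:18631006-18748866, plus strand), was at 44.4, 49.8 and 47.8 CPM in BxPC3 and 0 counts in Panc327, at least 435-fold higher. PIWIL1, a germline protein that binds piwi-interacting RNA (chr12:130337887-130372637, plus strand), was at 35.8, 39.1 and 36.3 CPM in BxPC3 and 0 counts in Panc327, at least 340.3-fold higher. The cancer-testis antigens MAGEA3 (chrX:152698752-152702347, plus strand) and MAGEA1 (chrX:153179285-153183880, plus strand) were at 116, 104 and 112 CPM in BxPC3 and 0 counts in Panc327 and at 90.8, 86.98 and 92.01 CPM in BxPC3 and 0 counts in Panc327. They were at least 1011-fold and at least 824-fold higher in BxPC3. MAGEA3 and MAGEA6 (81.2 ± 4.28 CPM in BxPC3 and 0.0364 ± 0.063 CPM in Panc327) are near-identical copies, so reads that fit both may have been left out as not unique, and their levels are uncertain.

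Of 21 cancer-testis antigens listed, 9 were tested. Of these, 8 were higher in BxPC3 and none lower (38.6% and 40.7% over all genes), with a median log2 difference of 8.34, or 5.60 with members at 0 counts set to their bound. MAGEA12 was at 20.03 ± 1.14 CPM in BxPC3 and 0 counts in Panc327, MAGEC2 at 5.31 ± 0.257 CPM in BxPC3 and 0 counts in Panc327 and CTAG2 at 3.60 ± 0.28 CPM in BxPC3 and 0 counts in Panc327. PRAME, the member not called, was at 0 counts in BxPC3 and 0.0357 ± 0.0619 CPM in Panc327. It was tested because of its level in SUIT2, 17.9 ± 0.838 CPM. The 8 called members had at most 1 count in Panc327, so they passed the filter on their BxPC3 counts and had to come out higher there.

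In the other direction, extracellular matrix genes and products of stratified epithelium led. KLK5, a serine protease that sheds the outer layer of skin (chr19:50943303-50953093, minus strand), was at 0 counts in BxPC3 and 404, 394 and 415 CPM in Panc327, at least 3481-fold lower in BxPC3. TNC, the matrix glycoprotein tenascin C (chr9:115019578-115118257, minus strand), was at 0, 0 and 0.114 CPM in BxPC3 and 1089.5, 1060.5 and 1099 CPM in Panc327, a ratio of 27982 (95% counting interval 5022 to 1105257). COL4A2, a chain of basement membrane collagen IV (chr13:110305812-110513209, plus strand), was at 0.365, 0.226 and 0.342 CPM in BxPC3 and 1708, 1669 and 1715 CPM in Panc327 (log2 difference -12.35 ± 0.11 SE, edgeR adjusted p = 2.03e-70). COL6A2, a chain of collagen VI (chr21:46098097-46132849, plus strand), was at 0 counts in BxPC3 and 87.6, 76.2 and 85.5 CPM in Panc327, at least 715-fold lower in BxPC3, and the secreted protein DKK3 (chr11:11963106-12009769, minus strand) at 0 counts in BxPC3 and 167, 168 and 169 CPM in Panc327, at least 1448-fold lower. Every Panc327 library held these 5 genes in quantity, and every BxPC3 library was at or near 0.

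PSAP, the precursor of the lysosomal saposins (chr10:71816298-71851375, minus strand), was at 0.243, 0.226 and 0.114 CPM in BxPC3 and 876, 843 and 874 CPM in Panc327 (log2 difference -12.01 ± 0.11 SE, edgeR adjusted p = 2.54e-92), while SUIT2 had 719 ± 32.7 CPM. SLC2A3, the glucose transporter GLUT3 (chr12:7919230-7936275, minus strand), was at 0, 0.113 and 0 CPM in BxPC3 and 223, 232 and 220.04 CPM in Panc327, a ratio of 5816 (95% counting interval 1044 to 229754). The kinase RIPK4, which is needed for epidermal differentiation (chr21:41739369-41767106, minus strand), was at 0 counts in BxPC3 and 56.3, 54.4 and 61.3 CPM in Panc327, at least 494-fold lower in BxPC3, against 37.5 ± 1.51 CPM in SUIT2. CALML3, a calmodulin of epithelia (chr10:5524009-5526771, plus strand), was at 0 counts in BxPC3 and 119, 114 and 117 CPM in Panc327, at least 1004-fold lower in BxPC3. It overlaps its antisense gene CALML3-AS1, itself at 0.116 ± 0.00476 CPM in BxPC3 and 18.2 ± 0.587 CPM in Panc327.

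The remaining leading genes are best known from embryonic, germline or neural cells. IGF2BP1, a fetal RNA-binding protein (chr17:48997412-49055650, plus strand), was at 0 counts in BxPC3 and 153, 161 and 159 CPM in Panc327, at least 1360.4-fold lower in BxPC3. TDRD1, a germline Tudor protein (chr10:114179270-114232304, plus strand), was at 0 counts in BxPC3 and 108, 103 and 106 CPM in Panc327, at least 909-fold lower. INA, the neuronal filament protein alpha-internexin (chr10:103277163-103290351, plus strand), was at 0.122, 0 and 0 CPM in BxPC3 and 192, 192 and 185 CPM in Panc327, a ratio of 4905 (95% counting interval 879.9 to 193768). In SUIT2 these genes were at or near 0 too, with 0.0405 ± 0.0701 CPM of IGF2BP1, 0.0737 ± 0.128 CPM of INA and 0 counts of TDRD1.

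**Figure D2:**
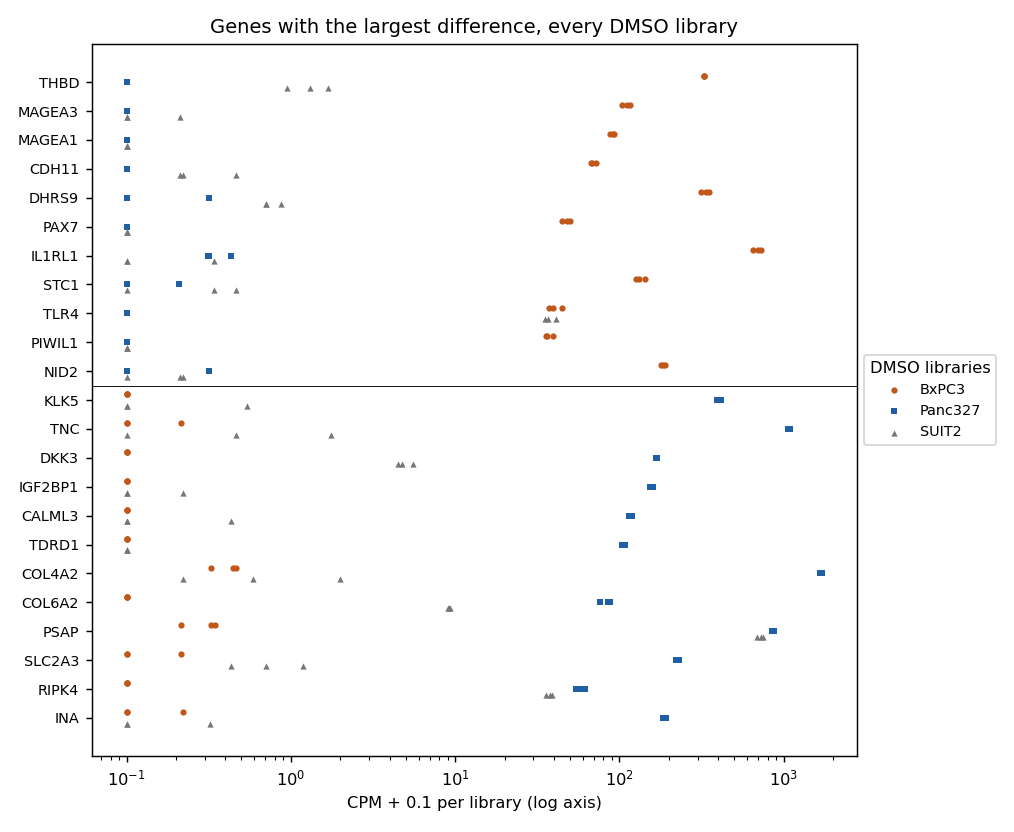
Level in every DMSO library (CPM + 0.1, log axis) of genes from the 12 with the largest difference in each direction, with those higher in BxPC3 above the line and those higher in Panc327 below it. The BxPC3 and Panc327 libraries do not overlap for any gene shown, and the SUIT2 libraries come near those of the line that has the gene for TLR4, PSAP and RIPK4.

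Both lines expressed the stratified keratins and TP63 of the basal-like subtype, at different levels. KRT17 reached 2480.1, 2536 and 2532 CPM in BxPC3 and 1327, 1231 and 1322 CPM in Panc327 (log2 difference 0.96 ± 0.10 SE, edgeR adjusted p = 6.48e-07), and none of its libraries overlapped between the lines. KRT5, the basal-layer keratin, reached 2841, 2814 and 2828 CPM in BxPC3 and 1329, 1322 and 1309 CPM in Panc327 (log2 difference 1.10 ± 0.10 SE, edgeR adjusted p = 2.4e-07). With DESeq2 these 2 calls were lost, at adjusted p-values of 0.149 for KRT17 and 0.187 for KRT5. TP63, the factor that drives the stratified programme, lay the other way, at 258, 244 and 272 CPM in BxPC3 and 398, 375 and 378 CPM in Panc327 (log2 difference -0.57 ± 0.04 SE, edgeR adjusted p = 6.29e-22). SUIT2 had next to none of either class, with KRT17 at 1.11 ± 0.706 CPM and TP63 at 0.428 ± 0.163 CPM.

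Of 20 basal-like genes 18 were tested. Of these, 11 were higher in BxPC3 and 2 lower, 61.1% and 11.1% against 38.6% and 40.7% of all genes. The median log2 difference was 1.03 against -0.02 over all genes. Among the members higher in BxPC3, DHRS9 differed most, followed by SCEL, or sciellin, an envelope protein of cornified cells. SCEL was at 172, 142 and 149.7 CPM in BxPC3 and 4.21, 3.97 and 3.38 CPM in Panc327 (log2 difference 5.32 ± 0.10 SE, edgeR adjusted p = 2.7e-64). SPRR1B, a precursor of the same envelope, and FAM83A, an EGF receptor pathway protein, had log2 differences of 4.95 ± 0.11 SE and 4.64 ± 0.08 SE. The cysteine protease inhibitor CST6 stood apart from the rest of the list, at 0.122, 0.226 and 0.228 CPM in BxPC3 and 41.2, 31.7 and 38.6 CPM in Panc327 (log2 difference -7.47 ± 0.24 SE, edgeR adjusted p = 7.06e-48), so that it was high in all 3 Panc327 libraries. KRT6A and KRT6B, near-identical copies whose shared reads may have been left out as not unique, were not called.

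Keratins as a family were evenly divided. Of 20 listed 18 were tested, 8 were higher in BxPC3 and 7 lower. These were 44.4% and 38.9%, near the 38.6% and 40.7% of all genes. Their median log2 difference of 0.04 became -0.01 without Panc327 replicate 2. KRT13, found in stratified mucosa, led those higher in BxPC3, at 606, 629.5 and 587 CPM in BxPC3 and 159.7, 168 and 169.9 CPM in Panc327 (log2 difference 1.87 ± 0.05 SE, edgeR adjusted p = 7.84e-51). KRT80 was lower in BxPC3, at 22.9, 24.1 and 23.7 CPM in BxPC3 and 209, 198 and 208 CPM in Panc327 (log2 difference -3.12 ± 0.06 SE, edgeR adjusted p = 4.32e-64). The wound keratin KRT16 was lower too (-4.49 ± 0.12 SE). KRT14, the usual partner of KRT5, differed little (-0.34 ± 0.09 SE).

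Classical subtype genes that were called were nearly all higher in BxPC3. Of 20 listed 15 were tested, 9 were higher and 1 lower, 60% and 6.67% against 38.6% and 40.7% of all genes. The median log2 difference of 1.48 was 2.55 without Panc327 replicate 2, and 5.34 in a fit of the 6 libraries alone, which tests fewer genes. CEACAM6 and CEACAM5, adhesion molecules of the carcinoembryonic antigen family, were far higher in BxPC3. CEACAM6 was at 494, 409 and 435 CPM in BxPC3 and 1.44, 1.39 and 1.64 CPM in Panc327 (log2 difference 8.21 ± 0.11 SE, edgeR adjusted p = 1.1e-57), and CEACAM5 at 202, 161 and 169 CPM in BxPC3 and 1.33, 0.858 and 1.09 CPM in Panc327 (log2 difference 7.32 ± 0.13 SE, edgeR adjusted p = 5.09e-55). ANXA10, an annexin of gastric epithelium, was at 199, 185 and 192 CPM in BxPC3 and 1.77, 1.82 and 1.31 CPM in Panc327 (log2 difference 6.86 ± 0.11 SE, edgeR adjusted p = 2.99e-73). These 3 genes were abundant in every BxPC3 library and low in every Panc327 library. AGR2, a disulfide isomerase of mucus cells, was well expressed in both, with a log2 difference of 0.43 ± 0.05 SE. TFF1, a gastric mucosal peptide, was at 4.07 ± 0.167 CPM in BxPC3 and 0 counts in Panc327, at least 37.3-fold higher in BxPC3, while TFF2, TFF3 and AGR3 did not pass the filter.

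Mucins were sparse in both lines. Of 14 listed 7 were tested, 4 were higher in BxPC3 and 3 lower, 57.1% and 42.9% against 38.6% and 40.7% of all genes (median 1.16). The membrane mucin MUC4 was at 33.1, 65.03 and 46.9 CPM in BxPC3 and 2.88, 3.32 and 4.04 CPM in Panc327 (log2 difference 3.82 ± 0.33 SE, edgeR adjusted p = 4.6e-07). MUC16, which carries the CA125 antigen, was at 0.122, 1.36 and 0.911 CPM in BxPC3 and 55.4, 61.9 and 64.3 CPM in Panc327 (log2 difference -6.19 ± 0.21 SE, edgeR adjusted p = 9.22e-24). Above 10 CPM, MUC4 was the one tested mucin in BxPC3 and MUC16 the one in Panc327. MUC1 stayed low, at 4.41 ± 0.102 CPM in BxPC3 and 1.96 ± 0.261 CPM in Panc327, and the gel-forming MUC5AC had 20 counts in BxPC3 and 8 in Panc327, under the filter.

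The lines expressed different endodermal transcription factors. Of 18 listed 17 were tested, 11 were higher in BxPC3 and 5 lower, 64.7% and 29.4% against 38.6% and 40.7% of all genes (median 1.34). GATA6, the factor most tied to the classical subtype, was at 51.2, 58.2 and 55.6 CPM in BxPC3 and 1.55, 0.965 and 1.31 CPM in Panc327 (log2 difference 5.42 ± 0.14 SE, edgeR adjusted p = 1.26e-54), and SUIT2 had 38.3 ± 2.51 CPM. The pioneer factor FOXA2 was at 19.8, 21.04 and 17.9 CPM in BxPC3 and 0.111, 0 and 0 CPM in Panc327, a ratio of 539 (95% counting interval 96.3 to 21319.7). PDX1, which specifies the pancreas, gave counts in BxPC3 only, at 1.70, 2.26 and 1.48 CPM in BxPC3 and 0 counts in Panc327, at least 16.7-fold higher. Relatives of these genes lay on the other side. FOXA3 was at 0 counts in BxPC3 and 2.88, 2.89 and 2.51 CPM in Panc327, at least 23.8-fold lower in BxPC3. GATA4 and ONECUT2 were lower at log2 differences of -2.85 ± 0.25 SE and -2.27 ± 0.33 SE. HNF4A, the second classical factor, was nearly absent from both lines, with 6 counts in BxPC3 and 2 in Panc327 and a SUIT2 level of 124 ± 2.94 CPM.

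Factors of squamous and mesenchymal cells were divided evenly. Of 14 listed 11 were tested, 5 were higher in BxPC3 and 5 lower, 45.5% each against 38.6% and 40.7% of all genes (median -0.57). ETS1 was at 222, 208 and 216 CPM in BxPC3 and 23.9, 22.6 and 23.4 CPM in Panc327 (log2 difference 3.21 ± 0.07 SE, edgeR adjusted p = 8.28e-64). FOSL1, an AP-1 subunit, and SNAI2, a repressor of cadherin 1, were also higher, at log2 differences of 2.07 ± 0.06 SE and 1.23 ± 0.07 SE. SOX2, a stem-cell and squamous factor, was at 12.5, 11.8 and 9.68 CPM in BxPC3 and 129, 127 and 119 CPM in Panc327 (log2 difference -3.47 ± 0.08 SE, edgeR adjusted p = 2.13e-57). The mesoderm factor TWIST1 was at 0 counts in BxPC3 and 9.42, 6.54 and 6.44 CPM in Panc327, at least 64.2-fold lower in BxPC3. RUNX3 was at 0, 0.113 and 0 CPM in BxPC3 and 22.4, 24.9 and 24.3 CPM in Panc327, a ratio of 617 (95% counting interval 110.4 to 24411). All 6 factors were on the same side in every library of a line.

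HOX genes, which record position along the body axis, were mostly weak and more often lower in BxPC3. Of 29 listed 23 were tested, 8 were higher in BxPC3 and 13 lower, 34.8% and 56.5% against 38.6% and 40.7% of all genes (median -0.83). The neighbours HOXD13, HOXD10 and HOXD9 gave counts in Panc327 only, so they could not come out higher in BxPC3 and add to the share lower. HOXD13 was at 0 counts in BxPC3 and 20.1, 15.4 and 18.1 CPM in Panc327, at least 154-fold lower in BxPC3. HOXD10 and HOXD9 were at least 119-fold and at least 38.2-fold lower, and HOXA11 was at 0.038 ± 0.0657 CPM in BxPC3 and 8.74 ± 1.91 CPM in Panc327, a ratio of 225 (95% counting interval 40.1 to 8940.4). HOXB3, HOXB5 and HOXB6 were higher in BxPC3 at low levels, with log2 differences of 4.74 ± 0.36 SE, 3.48 ± 0.47 SE and 3.10 ± 0.34 SE. Pairs of neighbours such as HOXB3 and HOXB6, or HOXD10 and HOXD11, share exon bases, so reads there may have been left out as ambiguous.

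Cell junction genes were mostly lower in BxPC3. All 25 listed were tested, 7 were higher and 17 lower, 68% against 40.7% of all genes lower (median -0.54). Desmosomal cadherins differed in both directions. DSC2 was at 13.02, 10.9 and 12.98 CPM in BxPC3 and 207, 203 and 209 CPM in Panc327 (log2 difference -4.07 ± 0.08 SE, edgeR adjusted p = 7.11e-48), and DSG3 at 89.8, 76.7 and 85.2 CPM in BxPC3 and 332, 352 and 356 CPM in Panc327 (log2 difference -2.05 ± 0.05 SE, edgeR adjusted p = 2.29e-55). DSG2, of the same family, was higher in BxPC3, at 861, 842 and 891 CPM in BxPC3 and 465, 505 and 513 CPM in Panc327 (log2 difference 0.81 ± 0.04 SE, edgeR adjusted p = 2.79e-35). Among tight-junction genes OCLN was lower (-2.50 ± 0.09 SE) and CLDN4 higher (0.82 ± 0.05 SE). CDH1, the cadherin of adherens junctions, was nearly level, at 678 ± 43.4 CPM in BxPC3 and 625 ± 8.73 CPM in Panc327 (log2 difference 0.12 ± 0.04 SE, edgeR adjusted p = 0.00802). Its libraries overlapped, and without BxPC3 replicate 1 its log2 difference was 0.08 with an edgeR adjusted p of 0.103.

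Mesenchymal genes lay on both sides. Of 18 listed 16 were tested, 5 were higher in BxPC3 and 10 lower, 31.2% and 62.5% against 38.6% and 40.7% of all genes (median -1.45). Those higher encode cytoskeletal and cell surface proteins. The filament protein vimentin, VIM, was at 17.3, 14.8 and 20.5 CPM in BxPC3 and 0.333, 2.04 and 0.437 CPM in Panc327 (log2 difference 4.19 ± 0.23 SE, edgeR adjusted p = 2.6e-19), far under its SUIT2 level of 1603 ± 63.5 CPM. The membrane-cytoskeleton linker MSN was at 1514, 1476 and 1568 CPM in BxPC3 and 204, 199 and 194 CPM in Panc327 (log2 difference 2.93 ± 0.04 SE, edgeR adjusted p = 5.54e-79), and the receptor kinase AXL was higher as well (1.81 ± 0.06 SE). Those lower were led by matrix genes, TNC above among them. Fibronectin, FN1, was at 27.02, 28.95 and 29.5 CPM in BxPC3 and 1463, 1459 and 1495 CPM in Panc327 (log2 difference -5.69 ± 0.05 SE, edgeR adjusted p = 2.8e-91). The collagen-binding protein SPARC was at 0.243, 0.226 and 0.114 CPM in BxPC3 and 213, 223 and 227 CPM in Panc327 (log2 difference -10.04 ± 0.15 SE, edgeR adjusted p = 1.08e-72). The gelatinase MMP2 was at 0.0377 ± 0.0653 CPM in BxPC3 and 81.3 ± 2.88 CPM in Panc327, a ratio of 2099 (95% counting interval 376 to 82953). Every Panc327 library was above every BxPC3 library for the 3 matrix genes, and below for VIM, MSN and AXL.

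Collagens were mostly lower in BxPC3 too. Of 20 listed 18 were tested, 6 were higher and 11 lower, 61.1% against 40.7% of all genes lower (median -1.57). COL4A1, the partner chain of COL4A2, was at 0.365, 0.339 and 0.455 CPM in BxPC3 and 1365, 1356 and 1355 CPM in Panc327 (log2 difference -11.72 ± 0.18 SE, edgeR adjusted p = 3.55e-18). The fibrillar chain COL5A2 was at 1.22, 1.02 and 1.37 CPM in BxPC3 and 280.2, 282 and 303 CPM in Panc327 (log2 difference -7.89 ± 0.10 SE, edgeR adjusted p = 2.57e-79). A short-chain collagen, COL8A1, lay the other way, at 62.3, 59.9 and 60.6 CPM in BxPC3 and 0.111, 0 and 0 CPM in Panc327, a ratio of 1676 (95% counting interval 300.3 to 66231). COL7A1, which anchors skin to its basement membrane, and COL27A1 were higher as well (1.02 ± 0.05 SE and 1.48 ± 0.07 SE). COL1A1 was at 9.74 ± 1.93 CPM in BxPC3 and 49.4 ± 1.32 CPM in Panc327 (log2 difference -2.33 ± 0.10 SE, edgeR adjusted p = 3.15e-37). All 5 fibroblast markers tested of 10 listed, COL1A1 among them, were lower in BxPC3, against 40.7% of all genes lower. Their summed level ran from 15.6 to 20.5 CPM in BxPC3 and from 67.5 to 70.1 CPM in Panc327, with the defining marker DCN at 0 counts in both lines. Their part in the collagen result was not tested.

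Laminins and integrins, the basement membrane and its receptors, were divided. All 23 listed were tested, 10 were higher in BxPC3 and 11 lower, 43.5% and 47.8% against 38.6% and 40.7% of all genes. The median of -0.03 became 0.03 without Panc327 replicate 1. The laminin chain LAMA1 was at 0, 0 and 0.228 CPM in BxPC3 and 238, 258 and 239.8 CPM in Panc327, a ratio of 3171 (95% counting interval 878 to 26189). LAMB2 was at 0, 0.113 and 0 CPM in BxPC3 and 68.7, 66.2 and 70.2 CPM in Panc327, a ratio of 1767 (95% counting interval 317 to 69820.1), whereas LAMB1 was at 527, 539 and 562 CPM in BxPC3 and 138, 140.1 and 139 CPM in Panc327 (log2 difference 1.96 ± 0.04 SE, edgeR adjusted p = 1.4e-60). Every Panc327 library was the higher for LAMA1 and LAMB2, and every BxPC3 library for LAMB1. ITGA2, which binds collagen, was at 438, 414 and 442 CPM in BxPC3 and 114, 117 and 112 CPM in Panc327 (log2 difference 1.92 ± 0.05 SE, edgeR adjusted p = 1.83e-57), and ITGA3, which binds laminin, was higher too (1.73 ± 0.04 SE). ITGA4, known from migrating leukocytes, was at 0, 0 and 0.114 CPM in BxPC3 and 34.7, 31.2 and 34.2 CPM in Panc327, a ratio of 861 (95% counting interval 154 to 34056), and ITGB8, which activates latent TGF-beta, had a log2 difference of -2.51 ± 0.06 SE.

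Matrix proteases and their inhibitors were mostly higher in BxPC3. Of 25 listed 24 were tested, 18 were higher and 5 lower, 75% against 38.6% of all genes higher (median 2.44). The transmembrane serine protease TMPRSS4 was at 221, 207 and 212 CPM in BxPC3 and 1.33, 0.75 and 1.09 CPM in Panc327 (log2 difference 7.64 ± 0.11 SE, edgeR adjusted p = 1.04e-74). MMP28, an epithelial metalloprotease, was at 50.5, 61.2 and 53.7 CPM in BxPC3 and 0.111, 0.643 and 0.327 CPM in Panc327 (log2 difference 7.18 ± 0.19 SE, edgeR adjusted p = 6.3e-53). TIMP3, an inhibitor of such enzymes, was at 262, 239 and 247 CPM in BxPC3 and 2.66, 2.79 and 2.07 CPM in Panc327 (log2 difference 6.63 ± 0.09 SE, edgeR adjusted p = 1.54e-76). These 3 genes were high in every BxPC3 library, and TFPI, which blocks tissue factor, was higher with them (5.83 ± 0.20 SE). MMP10 ran the other way, at 5.35, 5.43 and 4.90 CPM in BxPC3 and 289, 284 and 320.4 CPM in Panc327 (log2 difference -5.83 ± 0.08 SE, edgeR adjusted p = 2.39e-77), as did MMP13 (-2.93 ± 0.12 SE).

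Kallikreins, serine proteases encoded side by side on chromosome 19, differed within their cluster. Of 15 listed 9 were tested, 3 were higher in BxPC3 and 6 lower, 33.3% and 66.7% against 38.6% and 40.7% of all genes (median -4.54). KLK7 was low together with KLK5, at 0.122, 0.113 and 0.455 CPM in BxPC3 and 35.3, 34.3 and 36.7 CPM in Panc327 (log2 difference -7.15 ± 0.23 SE, edgeR adjusted p = 1.64e-47). KLK6 and KLK9 followed, with log2 differences of -6.13 ± 0.22 SE and -6.82 ± 0.30 SE. KLK10 and KLK11, of the same cluster, were higher in BxPC3. KLK10 was at 115, 101 and 99.9 CPM in BxPC3 and 50.3, 51.8 and 52.6 CPM in Panc327 (log2 difference 1.03 ± 0.06 SE, edgeR adjusted p = 2.11e-27), and KLK11 at 31.3, 31.6 and 31.4 CPM in BxPC3 and 5.76, 5.47 and 5.68 CPM in Panc327 (log2 difference 2.48 ± 0.12 SE, edgeR adjusted p = 2.67e-34). Both were counted in all 6 libraries, and KLK5 only in those of Panc327.

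S100 genes encode small calcium-binding proteins. Of 19 listed 13 were tested, 8 were higher in BxPC3 and 3 lower, 61.5% and 23.1% against 38.6% and 40.7% of all genes (median 0.58). S100A14 was at 256, 271 and 276 CPM in BxPC3 and 28.2, 22.7 and 28.4 CPM in Panc327 (log2 difference 3.34 ± 0.07 SE, edgeR adjusted p = 2.22e-59). S100P, a marker of pancreatic cancer, and S100A16 were higher by log2 differences of 2.64 ± 0.11 SE and 2.07 ± 0.05 SE. Of the 3 lower members, S100A6 differed by -0.44 ± 0.04 SE and S100A4, a protein of motile cells, by -2.04 ± 0.21 SE. S100A8, a neutrophil protein, was at 0 counts in BxPC3 and 1.31 ± 0.303 CPM in Panc327, at least 11.3-fold lower.

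**Figure D3:**
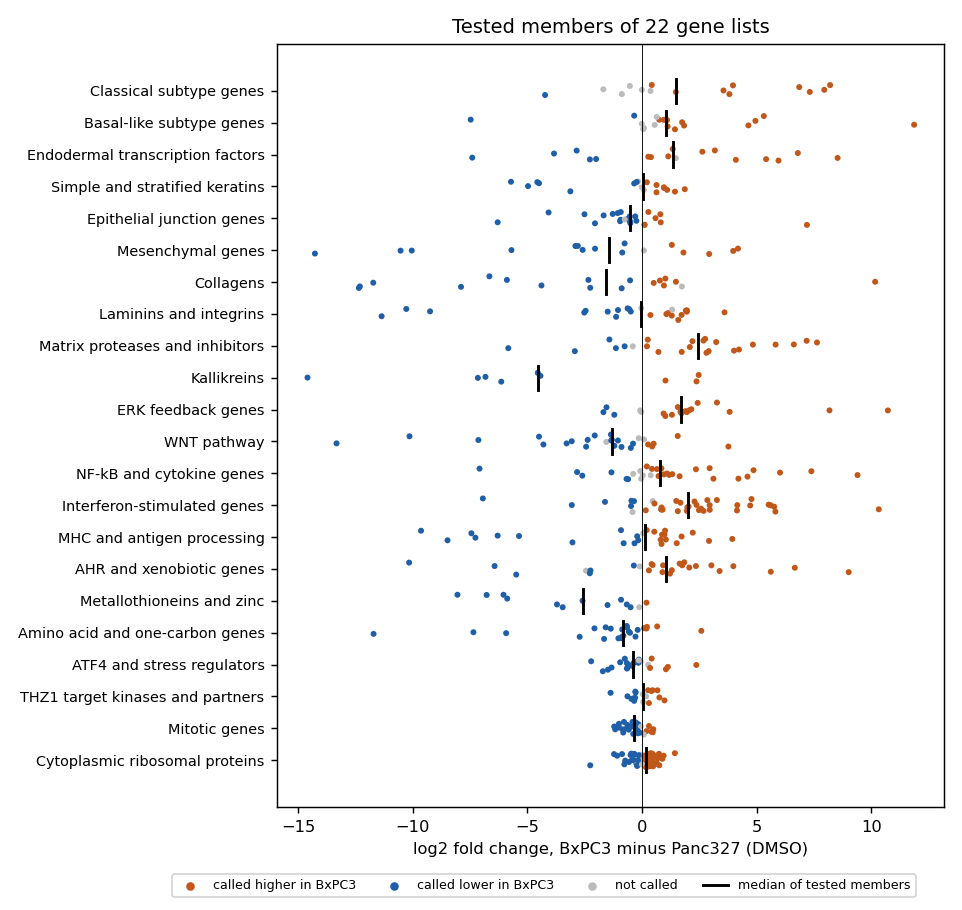
Log2 difference (BxPC3 minus Panc327) of each tested member of 22 gene lists, one point a gene, coloured by its call, with a bar at the list's median. Matrix proteases, ERK feedback and interferon-stimulated genes lie mostly to the right of 0, with medians of 2.44, 1.70 and 2.01, and WNT genes and metallothioneins to the left, with medians of -1.32 and -2.59; the fitted values of genes with 0 counts in 1 line depend on the prior count of the fit.

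Receptors and ligands of the EGF family were unlike in the lines. Of 19 listed 17 were tested, 8 were higher in BxPC3 and 5 lower, 47.1% and 29.4% against 38.6% and 40.7% of all genes (median 0.05). The receptor EGFR was at 313, 332 and 328 CPM in BxPC3 and 792, 784 and 772 CPM in Panc327 (log2 difference -1.27 ± 0.04 SE, edgeR adjusted p = 5.93e-49), and ERBB2 was lower as well (-0.69 ± 0.06 SE). The ligand HBEGF was at 114, 109 and 113 CPM in BxPC3 and 21.8, 22.6 and 22.4 CPM in Panc327 (log2 difference 2.33 ± 0.07 SE, edgeR adjusted p = 1.34e-51), and NRG1, the neuregulin that binds ERBB3, was also higher (2.53 ± 0.10 SE). MET, the receptor for hepatocyte growth factor, was at 694, 633 and 677 CPM in BxPC3 and 138, 145 and 148 CPM in Panc327 (log2 difference 2.22 ± 0.04 SE, edgeR adjusted p = 2.19e-65), and so was its relative MST1R, at a log2 difference of 2.95 ± 0.06 SE. EGFR was higher in every Panc327 library, and MET and HBEGF in every BxPC3 library.

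Genes that ERK signalling switches on, many of which damp it in turn, were mostly higher in BxPC3. All 20 listed were tested, 15 were higher and 3 lower, 75% against 38.6% of all genes higher (median 1.70). DUSP6, the phosphatase that inactivates ERK, was at 170.5, 161 and 166 CPM in BxPC3 and 18.6, 16.6 and 16.2 CPM in Panc327 (log2 difference 3.27 ± 0.07 SE, edgeR adjusted p = 1.29e-61). DUSP4, its nuclear relative, was at 318, 343 and 348 CPM in BxPC3 and 0.333, 0 and 0.218 CPM in Panc327 (log2 difference 10.73 ± 0.13 SE, edgeR adjusted p = 1.68e-81) and thus nearly uncounted in Panc327. PHLDA1 was at 501, 499 and 491 CPM in BxPC3 and 35.3, 34.6 and 35.3 CPM in Panc327 (log2 difference 3.83 ± 0.05 SE, edgeR adjusted p = 5.83e-77). The feedback inhibitor SPRY4 was higher with them (2.43 ± 0.14 SE). EGR1 and CCND1, also ERK targets, were lower in BxPC3 in every library. EGR1 was at 20.1, 20.6 and 23.002 CPM in BxPC3 and 68.3, 58.9 and 58.9 CPM in Panc327 (log2 difference -1.54 ± 0.08 SE, edgeR adjusted p = 1.55e-32), and CCND1 at 287, 303 and 306 CPM in BxPC3 and 695, 689.8 and 679 CPM in Panc327 (log2 difference -1.20 ± 0.04 SE, edgeR adjusted p = 4.59e-48). IER3 and SPRED2 were not called.

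WNT pathway genes were mostly lower in BxPC3. Of 31 listed 26 were tested, 5 were higher and 18 lower, 69.2% against 40.7% of all genes lower (median -1.32). LGR5, the R-spondin receptor of stem cells, was at 0 counts in BxPC3 and 19.2, 19.7 and 16.6 CPM in Panc327, at least 159-fold lower in BxPC3. The ligand WNT4 was at 1.34, 1.24 and 0.569 CPM in BxPC3 and 22.6, 18.9 and 21.1 CPM in Panc327 (log2 difference -4.30 ± 0.21 SE, edgeR adjusted p = 5.45e-33). The receptor FZD1 was at 16.6, 16.4 and 15.6 CPM in BxPC3 and 174, 149 and 151 CPM in Panc327 (log2 difference -3.28 ± 0.08 SE, edgeR adjusted p = 8.4e-59). Another receptor, FZD8, and the co-receptor LRP5 were higher (3.77 ± 0.17 SE and 1.56 ± 0.05 SE). AXIN2, a direct target of the pathway, was not called, at 0.038 ± 0.0657 CPM in BxPC3 and 0.145 ± 0.0603 CPM in Panc327.

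The TGF-beta and BMP pathway signals through SMAD4. All 26 listed genes were tested, 11 were higher in BxPC3 and 12 lower, 42.3% and 46.2% against 38.6% and 40.7% of all genes. The median log2 difference was -0.24, or -0.14 without BxPC3 replicate 1. SMAD4 itself was at 0 counts in BxPC3 and 38.02, 43.5 and 42.9 CPM in Panc327, at least 358-fold lower in BxPC3. The ligand INHBA was at 17.04, 16.2 and 17.2 CPM in BxPC3 and 0 counts in Panc327, at least 154-fold higher, and BMP2 at 17.99 ± 0.712 CPM in BxPC3 and 0.11 ± 0.111 CPM in Panc327, a ratio of 165 (95% counting interval 56.1 to 803). Both ligands were nearly confined to the BxPC3 libraries, and the receptor TGFBR2 was higher there too (1.13 ± 0.05 SE). ID3, a direct target of BMP signals, was at 4.26, 4.98 and 4.67 CPM in BxPC3 and 171, 174 and 162 CPM in Panc327 (log2 difference -5.18 ± 0.09 SE, edgeR adjusted p = 2.18e-68), and ID2 had a log2 difference of -5.09 ± 0.29 SE. TGFBI, a matrix protein induced by TGF-beta, was at 621, 624 and 664 CPM in BxPC3 and 4499, 4474 and 4518 CPM in Panc327 (log2 difference -2.82 ± 0.04 SE, edgeR adjusted p = 1.85e-80).

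YAP and TEAD genes were divided. All 19 listed were tested, 9 were higher in BxPC3 and 8 lower, 47.4% and 42.1% against 38.6% and 40.7% of all genes. The median of 0.03 became -0.0046 without Panc327 replicate 3. CTGF, a secreted target, was at 4.99, 4.75 and 3.99 CPM in BxPC3 and 66.1, 62.2 and 59.8 CPM in Panc327 (log2 difference -3.77 ± 0.11 SE, edgeR adjusted p = 1.17e-51). CYR61, of the same family, was at 151, 137 and 154 CPM in BxPC3 and 695, 657 and 680.2 CPM in Panc327 (log2 difference -2.20 ± 0.05 SE, edgeR adjusted p = 2.3e-56). Tissue factor, F3, ran against them, at 1982, 1829 and 1963 CPM in BxPC3 and 302, 292 and 303 CPM in Panc327 (log2 difference 2.69 ± 0.04 SE, edgeR adjusted p = 8.97e-54), and the coactivator WWTR1 was also higher in BxPC3 (1.78 ± 0.06 SE).

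Cytokine and NF-kB genes were more often higher in BxPC3. Of 35 listed 30 were tested, 19 were higher and 6 lower, 63.3% against 38.6% of all genes higher (median 0.79). Both interleukin 1 genes were higher. IL1B was at 121, 122 and 121 CPM in BxPC3 and 1.33, 2.57 and 1.64 CPM in Panc327 (log2 difference 6.02 ± 0.12 SE, edgeR adjusted p = 1.22e-63). IL1A, its neighbour, was at 128, 122 and 133 CPM in BxPC3 and 4.32, 4.93 and 6.44 CPM in Panc327 (log2 difference 4.61 ± 0.10 SE, edgeR adjusted p = 6.24e-61). IL33, the ligand of IL1RL1, gave counts only in BxPC3, at 2.56, 3.39 and 2.28 CPM in BxPC3 and 0 counts in Panc327, at least 25.2-fold higher. The neutrophil chemokine CXCL5 did so too, at 10.1, 10.9 and 12.4 CPM in BxPC3 and 0 counts in Panc327, at least 102-fold higher. CX3CL1, a membrane-bound chemokine, was at 0.122, 0.113 and 0.228 CPM in BxPC3 and 25.8, 21.1 and 22.7 CPM in Panc327 (log2 difference -7.08 ± 0.27 SE, edgeR adjusted p = 2.98e-41). Prostaglandin synthase PTGS2 and IL32 were lower as well (-1.33 ± 0.05 SE and -2.60 ± 0.16 SE), and TNF and IL6 did not pass the filter.

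Interferon-stimulated genes were mostly higher in BxPC3. All 38 listed were tested, 30 were higher and 6 lower, 78.9% against 38.6% of all genes higher (median 2.01). The antiviral GTPase MX2 was at 70.7, 66.5 and 66.8 CPM in BxPC3 and 0, 0 and 0.109 CPM in Panc327, a ratio of 1869.5 (95% counting interval 335 to 73884). OAS1, which senses double-stranded RNA, was at 25.1, 27.7 and 24.03 CPM in BxPC3 and 0.554, 0.322 and 0.437 CPM in Panc327 (log2 difference 5.82 ± 0.21 SE, edgeR adjusted p = 2.38e-44). Its relative OASL was at 139.7, 148 and 153 CPM in BxPC3 and 2.33, 3.86 and 2.73 CPM in Panc327 (log2 difference 5.62 ± 0.10 SE, edgeR adjusted p = 3.09e-69). The antiviral adaptor IFIT3, whose promoter is printed above, was at 64.6, 63.2 and 65.1 CPM in BxPC3 and 0.998, 0.75 and 1.75 CPM in Panc327 (log2 difference 5.77 ± 0.14 SE, edgeR adjusted p = 2.64e-57). Each BxPC3 library was above each Panc327 library for these 4 genes, and for IFI44 (4.15 ± 0.10 SE) and the ubiquitin-like modifier ISG15 (1.68 ± 0.07 SE).

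A few members stood on the other side. USP18, which removes ISG15 and restrains interferon signalling, was at 2.31, 2.60 and 1.94 CPM in BxPC3 and 21.2, 17.5 and 18.8 CPM in Panc327 (log2 difference -3.06 ± 0.16 SE, edgeR adjusted p = 2.2e-31). EPSTI1 was at 5.23, 3.28 and 5.47 CPM in BxPC3 and 13.3, 14.7 and 14.6 CPM in Panc327 (log2 difference -1.61 ± 0.15 SE, edgeR adjusted p = 1.86e-16). IFIT5 was at 8.28, 11.2 and 13.2 CPM in BxPC3 and 14.97, 15.7 and 14.95 CPM in Panc327 (log2 difference -0.47 ± 0.13 SE, edgeR adjusted p = 0.000468). In these 3 every Panc327 library was the higher. IRF7, the factor that amplifies the response, was at 0 counts in BxPC3 and 2.11, 1.29 and 2.62 CPM in Panc327, at least 17.2-fold lower in BxPC3. IFITM1 was lower too (-0.46 ± 0.13 SE), and it shares exon bases with IFITM2, which was higher. CMPK2 and IFI35 were not called.

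RefSeq promoters were found for 29 of the 38 interferon-stimulated genes. These letters of the response element were present in 16 of them, 13 of genes higher and 3 of genes lower in BxPC3. They were not found in the windows of 11 higher genes. Over all 27305 promoters of the same length they were found in 175 (0.641%). The EPSTI1 and IFIT5 windows shown above hold the letters as the IFIT3 and IFI44 windows do. A match describes letters, and a window without one says only that these letters are not in it.

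Antigen-presentation genes lay on both sides. All 26 listed were tested, 13 were higher in BxPC3 and 12 lower, 50% and 46.2% against 38.6% and 40.7% of all genes (median 0.13). B2M, the light chain of class I, was at 1532, 1429 and 1498 CPM in BxPC3 and 193, 194 and 199 CPM in Panc327 (log2 difference 2.93 ± 0.04 SE, edgeR adjusted p = 3.99e-78). ERAP2, which trims peptides for it, was at 212, 194 and 203 CPM in BxPC3 and 44.5, 41.9 and 44.4 CPM in Panc327 (log2 difference 2.22 ± 0.06 SE, edgeR adjusted p = 1.68e-55). CD274, the checkpoint ligand PD-L1, was at 27.3, 21.5 and 22.5 CPM in BxPC3 and 1.55, 1.72 and 1.31 CPM in Panc327 (log2 difference 3.94 ± 0.18 SE, edgeR adjusted p = 3.55e-36). Of the heavy chains HLA-B was lower (-0.91 ± 0.07 SE), with reads that near-identical HLA genes may share. The class II genes named here were counted nearly only in Panc327. HLA-DRA was at 0 counts in BxPC3 and 12.4, 12.1 and 14.6 CPM in Panc327, at least 112-fold lower in BxPC3. The invariant chain CD74 was at 0.365, 0 and 0 CPM in BxPC3 and 44.2, 48.3 and 49.1 CPM in Panc327, a ratio of 407 (95% counting interval 139 to 1976). CIITA, the factor that switches class II on, was at 0 counts in BxPC3 and 2.51 ± 1.08 CPM in Panc327, at least 21.6-fold lower in BxPC3.

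Genes of xenobiotic metabolism were more often higher in BxPC3. Of 30 listed 26 were tested, 18 were higher and 6 lower, 69.2% against 38.6% of all genes higher (median 1.07). AKR1B10, a carbonyl reductase, was at 66.3, 50.6 and 54.999 CPM in BxPC3 and 0.443, 0.75 and 0.437 CPM in Panc327 (log2 difference 6.67 ± 0.18 SE, edgeR adjusted p = 3.33e-53). ALDH3A1, an aldehyde dehydrogenase, was at 328, 325 and 317 CPM in BxPC3 and 22.2, 19.9 and 18.9 CPM in Panc327 (log2 difference 3.99 ± 0.06 SE, edgeR adjusted p = 4.86e-74). The glucuronosyltransferase UGT1A10 was at 70.8, 61.98 and 62.7 CPM in BxPC3 and 0.111, 0.107 and 0.109 CPM in Panc327, a ratio of 597 (95% counting interval 204 to 2896). It shares exons with other UGT1A genes, and reads there may have been left out of the gene counts as ambiguous. The aryl hydrocarbon receptor AHR was lower in BxPC3, at 98.8, 95.1 and 92.01 CPM in BxPC3 and 462, 451 and 441 CPM in Panc327 (log2 difference -2.24 ± 0.05 SE, edgeR adjusted p = 1.49e-62). Its targets lay on opposite sides. CYP1B1 was at 121, 109.8 and 121 CPM in BxPC3 and 2.99, 1.72 and 2.40 CPM in Panc327 (log2 difference 5.62 ± 0.11 SE, edgeR adjusted p = 8.02e-64), and CYP1A1 at 1.70, 1.92 and 1.82 CPM in BxPC3 and 82.03, 83.2 and 80.8 CPM in Panc327 (log2 difference -5.48 ± 0.13 SE, edgeR adjusted p = 1.37e-59). ALDH1A1, a retinal dehydrogenase used as a stem-cell marker, was at 0 counts in BxPC3 and 17.6, 19.3 and 19.2 CPM in Panc327, at least 161-fold lower in BxPC3.

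NRF2 targets, the antioxidant genes, were also more often higher. All 22 listed were tested, 15 were higher in BxPC3 and 5 lower, 68.2% against 38.6% of all genes higher (median 0.37). GPX2, a glutathione peroxidase of the gut, was at 137, 124 and 140.2 CPM in BxPC3 and 7.76, 9.33 and 10.3 CPM in Panc327 (log2 difference 3.87 ± 0.08 SE, edgeR adjusted p = 2.05e-62). SLC7A11, which imports cystine, was at 198, 174 and 184 CPM in BxPC3 and 32.4, 31.3 and 28.4 CPM in Panc327 (log2 difference 2.59 ± 0.07 SE, edgeR adjusted p = 3.76e-34). The quinone reductase NQO1 was higher as well (1.76 ± 0.05 SE). GCLC, which starts glutathione synthesis, was lower (-0.48 ± 0.06 SE), and KEAP1 and HMOX1 were not called.

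All 8 metallothioneins tested were lower in BxPC3. Of the 14 genes of the metallothionein and zinc list 13 were tested, 1 was higher and 11 lower, 84.6% against 40.7% of all genes lower (median -2.59). MT1G was at 4.99, 4.52 and 3.53 CPM in BxPC3 and 544, 431 and 451 CPM in Panc327 (log2 difference -6.77 ± 0.16 SE, edgeR adjusted p = 3.63e-15). MT1H was at 1.83, 0.905 and 1.71 CPM in BxPC3 and 105, 87.5 and 101 CPM in Panc327 (log2 difference -6.04 ± 0.15 SE, edgeR adjusted p = 3.64e-44). MT2A was at 458, 485 and 493 CPM in BxPC3 and 997, 834 and 867 CPM in Panc327 (log2 difference -0.91 ± 0.04 SE, edgeR adjusted p = 3.14e-28). Each Panc327 library was above each BxPC3 library for these genes, and for MT1M (-3.70 ± 0.13 SE) and MT1X (-2.59 ± 0.06 SE). Members of the family are near-identical in places, so reads that fit more than 1 of them may have been left out as not unique. MTF1, the factor that drives them, differed little, at 36.4 ± 2.40 CPM in BxPC3 and 31.7 ± 1.36 CPM in Panc327 (log2 difference 0.20 ± 0.08 SE, edgeR adjusted p = 0.0157), and with DESeq2 it was not called (adjusted p = 0.0509).

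RefSeq promoters were found for 7 of these 14 genes. TGCACNC or TGCGCNC was present in 6 of them, all of genes lower in BxPC3, and in 24.7% of all promoters of the same length. The MT1H window holds 8 matches and the MT2A window 7.

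Amino acid and one-carbon genes were mostly lower in BxPC3. All 24 listed were tested, 5 were higher and 19 lower, 79.2% against 40.7% of all genes lower (median -0.83). SLC7A5, the transporter of large neutral amino acids, was at 1204, 1237 and 1215 CPM in BxPC3 and 5350.4, 5041 and 4951 CPM in Panc327 (log2 difference -2.07 ± 0.04 SE, edgeR adjusted p = 3.21e-67), and its partner SLC3A2 was lower with it (-1.65 ± 0.04 SE). BCAT1, which transaminates branched-chain amino acids, was at 0 counts in BxPC3 and 52.99, 57.8 and 53.8 CPM in Panc327, at least 473-fold lower in BxPC3. The mitochondrial folate enzyme ALDH1L2 was at 0.487, 0.452 and 0.114 CPM in BxPC3 and 59.8, 60.1 and 58.3 CPM in Panc327 (log2 difference -7.35 ± 0.17 SE, edgeR adjusted p = 1.49e-58). SLC7A11, given above, and the glutamine transporter SLC38A2 (0.67 ± 0.05 SE) were among the 5 higher in BxPC3.

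Regulators of the integrated stress response, the pathway in the title of the series, mostly differed by less than 2-fold. All 24 listed were tested, 5 were higher in BxPC3 and 16 lower, 66.7% against 40.7% of all genes lower (median -0.38). ATF4, the factor at its centre, was at 236, 225 and 225 CPM in BxPC3 and 369.8, 347 and 359 CPM in Panc327 (log2 difference -0.65 ± 0.04 SE, edgeR adjusted p = 1.21e-26). DDIT3, which encodes CHOP, was not called, at 8.41 ± 0.458 CPM in BxPC3 and 6.95 ± 0.665 CPM in Panc327, and it shares 355 exon bases with MARS on the other strand. CEBPB, a partner of ATF4, was higher, at 26.4, 33.3 and 31.3 CPM in BxPC3 and 6.76, 4.82 and 6.003 CPM in Panc327 (log2 difference 2.37 ± 0.12 SE, edgeR adjusted p = 5.3e-32), as was PPP1R15A, which ends the response (1.05 ± 0.06 SE). TRIB3, a target of ATF4, was lower, at 26.7, 28.95 and 29.8 CPM in BxPC3 and 70.7, 69.04 and 74.2 CPM in Panc327 (log2 difference -1.32 ± 0.08 SE, edgeR adjusted p = 1.58e-29). ATF3 and XBP1 were lower too (-1.48 ± 0.15 SE and -0.95 ± 0.06 SE).

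Most glycolytic genes differed by less than 2-fold. All 23 listed were tested, 7 were higher in BxPC3 and 11 lower, 30.4% and 47.8% against 38.6% and 40.7% of all genes (median -0.04). PKM, the last enzyme of the pathway, was at 4167, 4291 and 4307 CPM in BxPC3 and 2022, 1985 and 1998 CPM in Panc327 (log2 difference 1.09 ± 0.03 SE, edgeR adjusted p = 6.92e-49). CA9, a carbonic anhydrase induced by low oxygen, was at 0 counts in BxPC3 and 27.7, 23.3 and 25.5 CPM in Panc327, at least 219.5-fold lower in BxPC3, and shares 643 exon bases with ARHGEF39 on the other strand. The neuronal enolase ENO2 was lower (-3.62 ± 0.11 SE) and the lactate exporter SLC16A3 higher (1.63 ± 0.06 SE). SLC2A1, the common glucose transporter, was not called, at 411 ± 3.40 CPM in BxPC3 and 424 ± 11.5 CPM in Panc327, unlike SLC2A3 above.

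The targets of THZ1 and their partners were measured here without the drug. All 19 listed were tested, 7 were higher in BxPC3 and 8 lower (median 0.06). These were 36.8% and 42.1%, near the 38.6% and 40.7% of all genes. CDK19 alone differed by at least 2-fold (-1.37 ± 0.11 SE). CDK7 was at 32.1, 29.6 and 30.9 CPM in BxPC3 and 39.4, 39.6 and 41.04 CPM in Panc327 (log2 difference -0.37 ± 0.08 SE, edgeR adjusted p = 1.41e-05). CDK12 was at 102, 97.2 and 101 CPM in BxPC3 and 136, 135 and 140.2 CPM in Panc327 (log2 difference -0.46 ± 0.05 SE, edgeR adjusted p = 1.5e-13). CDK13 was at 76.6, 73.1 and 81.2 CPM in BxPC3 and 94.01, 102 and 96.2 CPM in Panc327, with a log2 difference of -0.34 ± 0.06 SE (edgeR adjusted p = 1.09e-07). For these 3 kinases the lines differed by less than 2-fold, with every Panc327 library the higher. POLR2A, the large subunit of RNA polymerase II that they phosphorylate, was at 408, 456 and 433 CPM in BxPC3 and 668, 659 and 679 CPM in Panc327 (log2 difference -0.63 ± 0.04 SE, edgeR adjusted p = 1.02e-28). CDK9, the kinase of P-TEFb, was higher (0.68 ± 0.07 SE), as was MEPCE, which caps the 7SK RNA that holds CDK9 inactive (0.98 ± 0.06 SE).

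SIRT6, the deacetylase in the title of the series, was the one sirtuin higher in BxPC3, at 14.97, 13.1 and 13.4 CPM in BxPC3 and 9.42, 8.58 and 10.6 CPM in Panc327 (log2 difference 0.54 ± 0.13 SE, edgeR adjusted p = 0.000129). Of 7 sirtuins 6 were tested and the other 5 were lower, 83.3% against 40.7% of all genes lower. All differed by less than 2-fold (median -0.57). SIRT1 was at 19.2, 19.2 and 21.98 CPM in BxPC3 and 28.8, 31.2 and 30.7 CPM in Panc327 (log2 difference -0.58 ± 0.09 SE, edgeR adjusted p = 1.36e-08). SIRT5 had a log2 difference of -0.94 ± 0.11 SE and SIRT7 of -0.73 ± 0.08 SE. The libraries of the lines did not overlap for these 4 genes.

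Genes of drug transport and of gemcitabine metabolism were mixed. Of 16 listed 13 were tested, 5 were higher in BxPC3 and 5 lower, 38.5% each against 38.6% and 40.7% of all genes. The median log2 difference was -0.13, or -0.07 without Panc327 replicate 3. ABCB1, the efflux pump P-glycoprotein, was nearly uncounted, with 0 counts in BxPC3 and 2 in Panc327. SLC29A1, which imports nucleosides, was at 89.1, 91.2 and 94.3 CPM in BxPC3 and 189, 169.9 and 186 CPM in Panc327 (log2 difference -0.99 ± 0.05 SE, edgeR adjusted p = 1.36e-31). RRM2, a subunit of ribonucleotide reductase, was at 135, 127 and 130.04 CPM in BxPC3 and 374, 377 and 362 CPM in Panc327 (log2 difference -1.50 ± 0.04 SE, edgeR adjusted p = 1.17e-50). Both were higher in all 3 Panc327 libraries. DCK, which activates gemcitabine, and CDA, which inactivates it, were slightly higher in BxPC3 (0.28 ± 0.09 SE and 0.32 ± 0.09 SE).

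Apoptosis genes were more often higher in BxPC3. Of 30 listed 28 were tested, 19 were higher and 5 lower, 67.9% against 38.6% of all genes higher (median 0.73). CASP1, which matures interleukin 1 beta, was at 21.7, 18.1 and 20.04 CPM in BxPC3 and 1.22, 1.39 and 1.75 CPM in Panc327 (log2 difference 3.76 ± 0.19 SE, edgeR adjusted p = 1.95e-33). BIK, a BH3-only killer, was at 18.6, 18.7 and 19.6 CPM in BxPC3 and 1.33, 1.82 and 2.29 CPM in Panc327 (log2 difference 3.37 ± 0.17 SE, edgeR adjusted p = 1.79e-32), and PMAIP1, of the same class, was higher as well (2.36 ± 0.11 SE).

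Mitotic genes were slightly lower in BxPC3 as a group. All 30 listed were tested, 5 were higher and 23 lower, 76.7% against 40.7% of all genes lower, but only 3 by at least 2-fold (median -0.36). NDC80, a kinetochore protein, was at 45.5, 40.3 and 46.1 CPM in BxPC3 and 99.99, 105 and 99.98 CPM in Panc327 (log2 difference -1.21 ± 0.06 SE, edgeR adjusted p = 9.15e-32). CENPF, another, was at 208, 207 and 216 CPM in BxPC3 and 448, 484 and 485 CPM in Panc327 (log2 difference -1.16 ± 0.05 SE, edgeR adjusted p = 6.28e-38). Replication genes were balanced, with 14 of 34 higher and 16 lower, 41.2% and 47.1% against 38.6% and 40.7% of all genes. Their median was -0.03, or -0.07 without Panc327 replicate 1. MCM3 and MCM7, subunits of 1 helicase, lay on opposite sides, at log2 differences of -1.15 ± 0.04 SE and 0.69 ± 0.04 SE.

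Housekeeping genes gave the scale of differences among abundant transcripts. Of 79 cytoplasmic ribosomal protein genes, all tested, BxPC3 had 47 at a higher and 23 at a lower level (median 0.17). These were 59.5% and 29.1%, against 38.6% and 40.7% of all genes. Only 4 differed by at least 2-fold. RPL32 was one of these, at 448, 467 and 473 CPM in BxPC3 and 2278, 2168 and 2176 CPM in Panc327 (log2 difference -2.25 ± 0.04 SE, edgeR adjusted p = 2.04e-70), and it shares 320 exon bases with CAND2 on the other strand. RPS16, RPS7 and RPL21 were the others (-1.21 ± 0.05 SE, -1.08 ± 0.04 SE and 1.44 ± 0.04 SE). Among 15 genes in common use as references, B2M differed most, followed by YWHAZ (1.08 ± 0.04 SE), and PGK1 was nearly level (-0.18 ± 0.03 SE).

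Genes mutated in pancreatic cancer were mostly counted in both lines. Of 20 listed 19 were tested (median 0.03). Of these, 9 were higher in BxPC3 and 6 lower, 47.4% and 31.6% against 38.6% and 40.7% of all genes. MYC was at 142, 165 and 149 CPM in BxPC3 and 308, 290.2 and 308 CPM in Panc327 (log2 difference -0.99 ± 0.05 SE, edgeR adjusted p = 1.1e-32). MAP2K4, a stress kinase lost in some pancreatic tumours, was at 1.83, 1.70 and 1.71 CPM in BxPC3 and 68.2, 69.4 and 70.6 CPM in Panc327 (log2 difference -5.30 ± 0.13 SE, edgeR adjusted p = 2e-58). The demethylase gene KDM6A and the G protein gene GNAS were higher (1.16 ± 0.10 SE and 0.98 ± 0.04 SE). CDKN2A had 0 counts in BxPC3 and 1 in Panc327, and CDKN2B had 0 in both, whereas CDKN2A was at 10.5 ± 0.924 CPM in SUIT2. These are counts of RNA, and neither mutations nor DNA copies were measured.

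Genes nearly absent from 1 line sometimes lay side by side. A stretch was taken as at least 3 neighbours in chromosome order, each with at most 3 counts over the libraries of 1 line and at least 1 CPM in the other. Neighbours were sought among genes with at least 1 CPM in either line. There were 13 stretches nearly absent from BxPC3 and 8 nearly absent from Panc327. In 4 of the 13 and 2 of the 8, most members reached 1 CPM in SUIT2. Others were families of related genes, such as HOXD9 to HOXD13, DLX5 and DLX6, CALML3 and CALML5, and the MAGE genes of chromosome X.

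On chromosome 9, HACD4, KLHL9 and MIR31HG had 0 counts in BxPC3. KLHL9, a ubiquitin ligase adaptor (chr9:21329671-21335380, minus strand), was at 0 counts in BxPC3 and 27.6, 33.1 and 29.6 CPM in Panc327, at least 259.6-fold lower in BxPC3. MIR31HG, the host transcript of miR-31 (chr9:21455642-21559669, minus strand), was at 0 counts in BxPC3 and 8.87, 9.33 and 9.61 CPM in Panc327, at least 79.8-fold lower. MTAP, the next gene (chr9:21802543-21937651, plus strand), which salvages methionine, was at 0.243, 0.113 and 0.114 CPM in BxPC3 and 66.3, 70.3 and 64.2 CPM in Panc327 (log2 difference -8.61 ± 0.19 SE, edgeR adjusted p = 2.27e-61). CDKN2A, DMRTA1 and LINC01239 beyond it also had 0 counts in BxPC3. Of the genes that bound the region, FOCAD on one side was counted in both lines, at 32.9 ± 2.48 CPM in BxPC3 and 46.98 ± 2.02 CPM in Panc327. TUSC1, the nearest gene counted on the other side (chr9:25676389-25678440, minus strand), was low in Panc327 instead, at 13.5 ± 1.22 CPM in BxPC3 and 0.437 ± 0.112 CPM in Panc327 (log2 difference 4.90 ± 0.26 SE, edgeR adjusted p = 9.15e-32). CAAP1 beyond it was counted in both, at 26.96 ± 0.899 CPM in BxPC3 and 14.6 ± 0.991 CPM in Panc327. Of 13 genes listed for this part of the chromosome 8 were tested. None was higher in BxPC3 and 7 were lower, 87.5% against 40.7% of all genes lower. The median log2 difference was -8.06, or -5.38 with members at 0 counts set to their bound. The 4 members set to their bound had 0 counts in BxPC3, as had CDKN2A, so none of these could come out higher there. Of the 13 genes listed, 9 had 0 counts in BxPC3, so the share called lower largely restates that absence.

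On chromosome 18, ME2, ELAC1, SMAD4 and MEX3C formed another stretch. SMAD4 (chr18:51028394-51085045, plus strand), whose library values are given above, had 0 counts in BxPC3 and also in SUIT2. ME2, the mitochondrial malic enzyme (chr18:50878734-50954257, plus strand), was at 0.122, 0 and 0 CPM in BxPC3 and 61.6, 61.7 and 59.3 CPM in Panc327, a ratio of 1573 (95% counting interval 282 to 62178). MEX3C, an RNA-binding ubiquitin ligase (chr18:51174550-51218304, minus strand), was at 0 counts in BxPC3 and 36.6, 38.7 and 37.002 CPM in Panc327, at least 322-fold lower in BxPC3. SUIT2 had both of these, ME2 at 43.4 ± 1.34 CPM and MEX3C at 24.6 ± 2.07 CPM. The neighbours SKA1 and MBD2 were counted in both lines, SKA1 at 25.2 ± 3.09 CPM in BxPC3 and 24.2 ± 1.48 CPM in Panc327 and MBD2 at 86.1 ± 4.56 CPM in BxPC3 and 54.5 ± 2.32 CPM in Panc327.

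On chromosome 10, CHST3, SPOCK2, ASCC1 and ANAPC16 were nearly absent from BxPC3, next to PSAP and C10orf54, with 5 and 1 counts. ANAPC16, a subunit of the anaphase-promoting complex (chr10:72216000-72235860, plus strand), was at 0, 0.113 and 0 CPM in BxPC3 and 58.6, 58.4 and 54.6 CPM in Panc327, a ratio of 1478 (95% counting interval 265 to 58431). CHST3, a chondroitin sulfotransferase (chr10:71964365-72013564, plus strand), was at 0 counts in BxPC3 and 59.2, 54.99 and 49.9 CPM in Panc327, at least 471-fold lower in BxPC3. The genes beyond, DDIT4 at 62.7 ± 1.17 CPM in BxPC3 and 105 ± 2.32 CPM in Panc327 and SLC29A3 at 10.3 ± 0.099 CPM in BxPC3 and 10.4 ± 0.144 CPM in Panc327, were counted in both lines. ANAPC16 was also counted in SUIT2, at 61.4 ± 1.04 CPM.

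On chromosome 21, RIPK4, PRDM15, C2CD2, ZBTB21 and ABCG1 were nearly absent from BxPC3, while SUIT2 had all 5 above 1 CPM. ZBTB21, a zinc finger repressor (chr21:41986831-42010387, minus strand), was at 0 counts in BxPC3 and 20.8, 21.01 and 19.8 CPM in Panc327, at least 177-fold lower in BxPC3. PRDM15 (chr21:41798225-41879482, minus strand) was at 0 counts in BxPC3 and 16.9, 13.2 and 13.5 CPM in Panc327, at least 125-fold lower. The genes on either side, MX2 and MX1 before and TFF1 after, lay the other way and were higher in BxPC3.

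Among the stretches nearly absent from Panc327, KRBOX1, ZNF662 and FAM198A on chromosome 3 had 1 count each. KRBOX1 (chr3:42809483-42942792, plus strand) was at 13.996, 11.99 and 13.1 CPM in BxPC3 and 0, 0.107 and 0 CPM in Panc327, a ratio of 358 (95% counting interval 63.8 to 14171), and shares exon bases with ZNF662. On chromosome 11, ARHGAP42, CEP126 and C11orf70 had 3, 3 and 1 counts in Panc327. ARHGAP42, which turns off RhoA (chr11:100687653-100993941, plus strand), was at 19.96, 23.2 and 19.8 CPM in BxPC3 and 0.111, 0.214 and 0 CPM in Panc327, a ratio of 193 (95% counting interval 65.6 to 937). The next gene, YAP1, was well counted in all 6 libraries, at 206 ± 5.76 CPM in BxPC3 and 108 ± 6.44 CPM in Panc327 (log2 difference 0.94 ± 0.05 SE, edgeR adjusted p = 6.2e-32). DNA was not measured, so a missing gene and a silent one cannot be told apart.

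**Figure D4:**
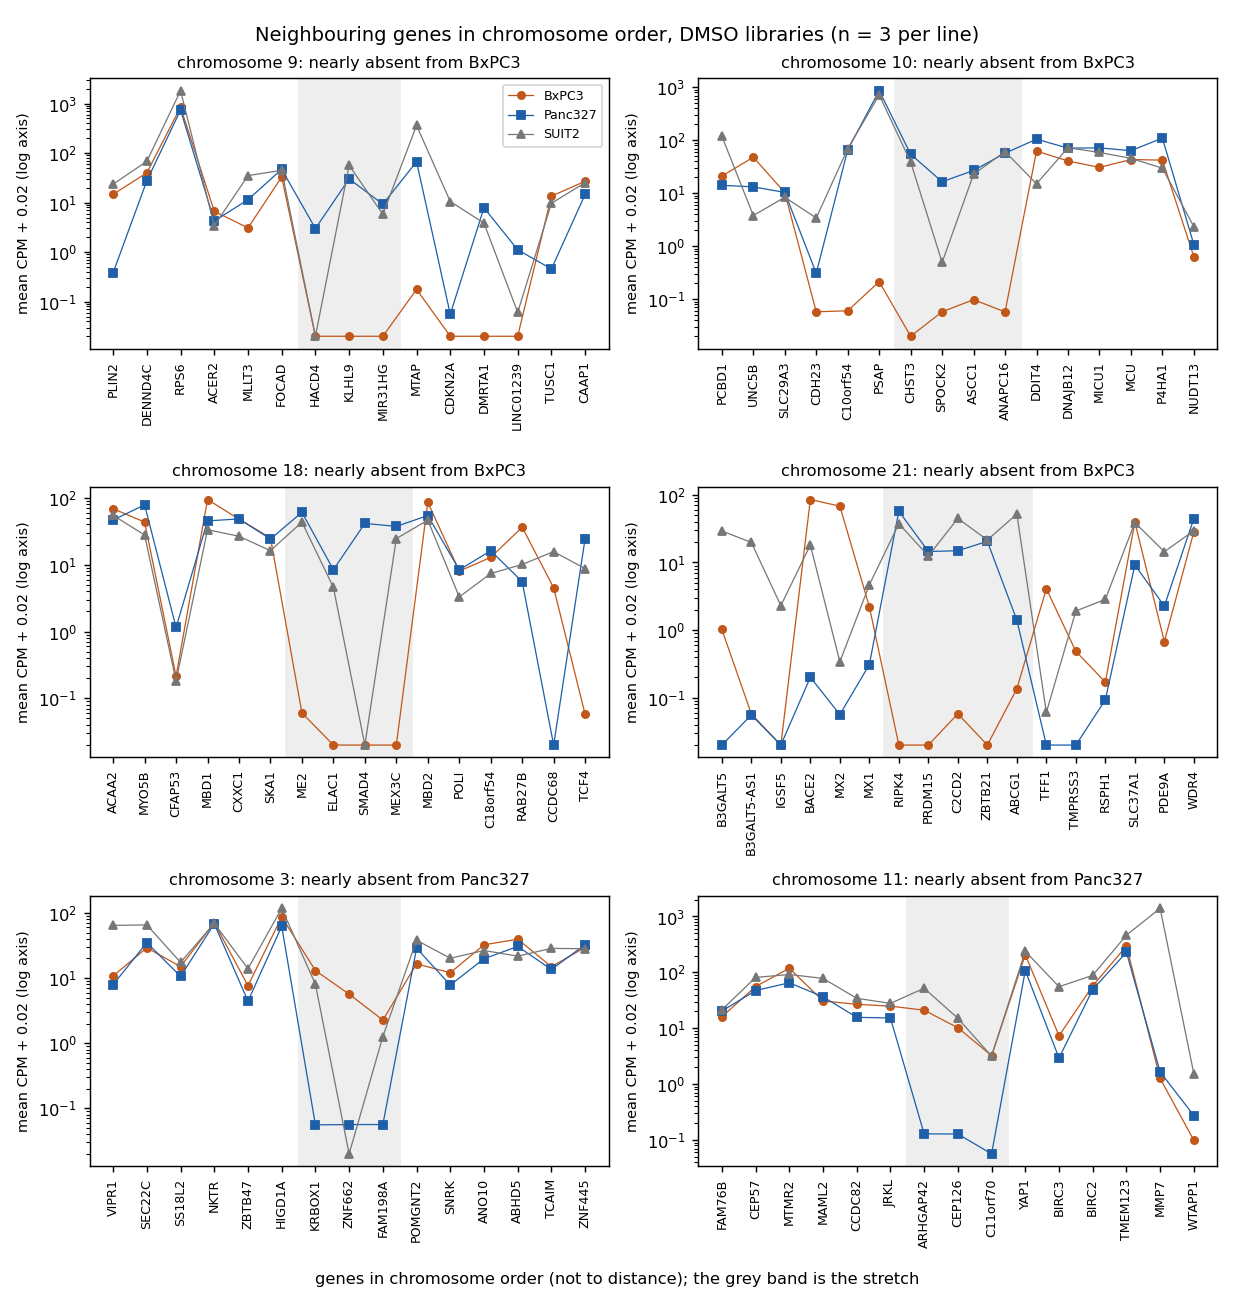
Mean level (CPM + 0.02, log axis) of genes in chromosome order around 6 stretches, marked by a grey band, for the 3 DMSO libraries each of BxPC3, Panc327 and SUIT2. In the upper 4 panels BxPC3 drops to near 0 within the band, and in the lower 2 panels Panc327 does. Most genes outside the bands are counted in both lines, but several beside the chromosome 21 band are not. On chromosomes 9 and 10 BxPC3 is also near 0 at some genes next to the band, such as MTAP and PSAP.

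Calls were uneven along the genome. On chromosome 17, 548 of 821 genes tested (66.7%) were lower in BxPC3 and 153 (18.6%) higher, with a median log2 difference of -0.59. Chromosome 22 was alike, with 224 of 336 (66.7%) lower and a median of -0.45, and on chromosome 18 the median was -0.30. The other way, 235 of 379 genes on chromosome 20 (62%) and 150 of 247 on chromosome 13 (60.7%) were higher in BxPC3, with medians of 0.39 and 0.50. Chromosome 15, with a median of 0.39, and chromosome 11, with 0.31, also leaned to BxPC3. These compare with 38.6% higher and 40.7% lower over all genes.

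**Figure D5:**
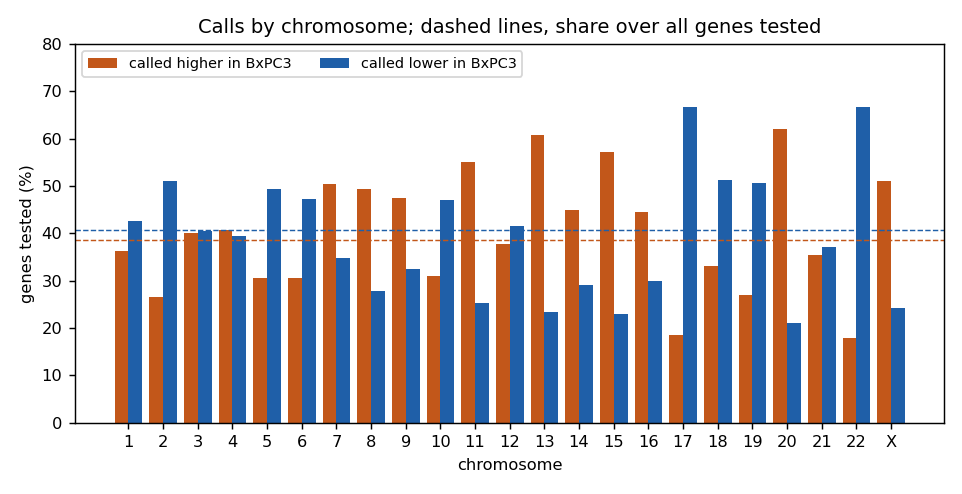
Share of the genes tested on each chromosome (%) that were called higher (orange) or lower (blue) in BxPC3, with dashed lines at the shares over all genes tested, 38.6% and 40.7%. Chromosomes 17 and 22 have 66.7% of their genes lower in BxPC3, and chromosomes 13 and 20 over 60% higher.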

How the data were processed

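The deposited files hold raw counts per gene symbol for 18 libraries, made by the authors with HTSeq 0.6.1 from TopHat2 2.1.0 alignments to hg38 after bcl2fastq 1.8.4, per the submitters' processing notes. Which annotation and strand setting were used is not given in the sources used here. The kit does not mark strand, so reads of overlapping genes on opposite strands cannot be told apart.

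The 5 summary entries of the counting tool were left out. Genes passing filterByExpr (minimum count 10, minimum total 15) were tested with edgeR 4.0.16 in R 4.3.3 (TMM scaling, robust quasi-likelihood fit, Benjamini-Hochberg adjustment over all genes tested, threshold 0.05). The model had a mean for each of the 6 groups, with 12 residual degrees of freedom. The SUIT2 and THZ1 libraries thus enter the filter, the scaling and the spread, but not the 2 means compared. The fit was tested on simulated data in which few genes changed. That does not test it where most genes differ, as they did here. Alternatives used limma 3.58.1 and DESeq2 1.42.0, other scalings and filters, a replicate block and each library left out. Tables and figures were made with Python 3.11.15.

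The comparison, its members and the gene lists were chosen with earlier results of these data known, and list medians stand beside the median of all genes without a test. Named are the 12 largest called differences in each direction with at least 10 CPM in a line and no overlap between the lines, a set of genes of known interest, up to 4 members per list and direction, and members of stretches. AXIN2, CAAP1, CD14, CFTR, CIITA, CTAG2, IFI44, IRF7, ISG15, MBD2, MT1X, MT2A, PRAME, PRSS1, PRSS2, S100A4, S100A8, SKA1, SLC29A3, SLC2A1, SLC3A2, TUSC1 and YAP1 fall outside this rule and were chosen after their values were seen. So were members named as not called or untested. Gene positions are from GENCODE 29 (GRCh38), to which 23900 of 26485 symbols matched by name and 670 through a RefSeq synonym. Promoters are from RefSeq on GRCh38.p14. A few genes that the naming rule covers are left out.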

Additional observations from a re-analysis of the deposited data

How the results depend on the processing

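Of 82 recounts of the genes called or nearly absent, 77 stayed within 1.5 times the reported count. The others concern genes nearly absent from a line, whose number follows the definition. With no count allowed, 77 were absent from BxPC3 and 19 from Panc327. With up to 10 counts, 106 were nearly absent from Panc327. With 5 CPM enough in the other line, there were 274 and 102.

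With each library left out in turn, 5238 to 5313 genes were called higher and 5576 to 5608 lower in BxPC3, and 2080 to 2111 and 2707 to 2756 by at least 2-fold. Genes nearly absent from BxPC3 then numbered 168 to 202, and those nearly absent from Panc327 58 to 80. A test against a 2-fold difference called 3861 genes. Every other setting kept 95.7% to 99.6% of the calls, with the same sign.

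Deviations of libraries with the same replicate number had correlations of -0.104, -0.14 and -0.00697 between the lines. Those with different numbers ran from -0.0221 to 0.124. Deviations from a mean of 3 libraries are tied to each other, so these values do not show whether a replicate number marks a shared batch. With a replicate block 5381 genes were called higher and 5690 lower, 2072 and 2673 by at least 2-fold, and in the 6 libraries alone 5232 and 5449. Of the single-gene recounts for 344 genes, 5359 kept their call, 134 lost it and none turned direction. The cause of lost calls was not tested, apart from the 109 lost to the 2-fold test, which asks for a larger difference.

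Depth limits the genes near 0 counts, where a fold is bounded by 3 counts over the libraries of a line.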

Other observations

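Ion and water channels differed between the lines by large margins. Of 20 listed 17 were tested, 9 were higher in BxPC3 and 6 lower, 52.9% and 35.3% against 38.6% and 40.7% of all genes, with a median log2 difference of 0.99. The calcium-activated chloride channel ANO1 was at 691, 645 and 676 CPM in BxPC3 and 7.65, 5.90 and 5.89 CPM in Panc327 (log2 difference 6.69 ± 0.07 SE, edgeR adjusted p = 1.96e-88). AQP3, a channel for water and glycerol, was at 720.5, 709 and 694 CPM in BxPC3 and 34.4, 30.8 and 34.9 CPM in Panc327 (log2 difference 4.41 ± 0.05 SE, edgeR adjusted p = 4.03e-83). The potassium channel KCNN4 was also higher in all 3 BxPC3 libraries (2.84 ± 0.10 SE). ATP1B1, a beta chain of the sodium pump, and the carbonic anhydrase CA12 were lower (-1.77 ± 0.05 SE and -1.83 ± 0.10 SE).

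Lipid genes were divided. Of 19 fatty acid and lipid genes listed 18 were tested (median 0.31, or 0.19 without BxPC3 replicate 2). Of these, 10 were higher in BxPC3 and 6 lower, 55.6% and 33.3% against 38.6% and 40.7% of all genes. PPARG, the nuclear receptor of fat cells and of urothelium, was at 40.2, 43.5 and 41.7 CPM in BxPC3 and 0, 0.107 and 0 CPM in Panc327, a ratio of 1151 (95% counting interval 206 to 45499.5). PLIN2, which coats lipid droplets, was at 13.6, 15.9 and 14.5 CPM in BxPC3 and 0.443, 0.322 and 0.327 CPM in Panc327 (log2 difference 5.28 ± 0.25 SE, edgeR adjusted p = 6.64e-35), and the fatty acid activating enzyme ACSL5 was higher as well (4.14 ± 0.09 SE). An enzyme that builds fatty acids and one that desaturates them were lower in every BxPC3 library. FASN, the fatty acid synthase, was at 399, 480.2 and 419 CPM in BxPC3 and 953, 896 and 904 CPM in Panc327 (log2 difference -1.08 ± 0.05 SE, edgeR adjusted p = 8.71e-18), and the desaturase FADS2 had a log2 difference of -2.77 ± 0.11 SE. Of 25 cholesterol synthesis genes, all tested, 12 were higher and 9 lower, 48% and 36% against 38.6% and 40.7% of all genes (median 0.04). FDFT1, which commits the pathway to sterols, was higher (1.93 ± 0.05 SE), and SC5D was lower (-1.07 ± 0.07 SE).

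Of 36 nuclear genes of the respiratory chain, all tested, 20 were higher in BxPC3 and 11 lower, 1 in each direction by at least 2-fold (median 0.18). The shares were 55.6% and 30.6%, against 38.6% and 40.7% of all genes.

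In windows of 10000000 bases with at least 20 genes tested, the lowest median log2 differences were -1.44 on chromosome 3 from 10000001 to 20000000 (34 of 52 genes lower in BxPC3), -1.36 on chromosome 18 from 1 to 10000000 (28 of 33) and -1.30 on chromosome 17 from 10000001 to 20000000 (62 of 73). The highest were 1.55 on chromosome 5 from 50000001 to 60000000 (25 of 28 genes higher) and 1.01 on chromosome 13 from 20000001 to 30000000 (36 of 49). The shares over all genes were 40.7% lower and 38.6% higher.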
